A study of Mus musculus with 13 samples.

Results

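The genes described here are 10 genes of MHC class I antigen presentation, chosen by symbol from the 55291 gene symbols counted in each library: B2m, H2-D1, H2-K1, H2-T23, Tap1, Tap2, Tapbp, Psmb8, Psmb9 and Nlrc5. All 10 were found. RNA was sequenced from 13 libraries, each made from the CA1 region of 1 entorhino-hippocampal tissue culture, a slice of young mouse brain kept alive on a membrane with its main connections in place. There were 5 non-lesioned control cultures, 4 cultures after Schaffer collateral lesion (SCL), which cuts the axons that run from CA3 to CA1, and 4 cultures after entorhinal cortex lesion (ECL), which cuts the perforant path from the entorhinal cortex. All cultures were wildtype C57BL/6, prepared at postnatal day 4 to 5 and kept for at least 18 days in vitro, and lesioned cultures were collected 3 days after the cut. The lesion scar was not part of the isolated tissue. The cultures have no blood circulation. The labels call the tissue CA1, while their protocol text on RNA isolation names the dentate gyrus. The summed level of 6 CA1 pyramidal cell markers was 277 to 491 CPM (counts scaled to 1000000 per library) over all 13 libraries, and that of 4 dentate granule cell markers was 12.0 to 24.1 CPM.

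MHC class I molecules carry short peptides from inside the cell to its surface. The proteasome cuts proteins into peptides, the TAP transporter (Tap1 with Tap2) moves these into the endoplasmic reticulum, and tapasin (Tapbp) helps to load them onto a heavy chain (here H2-D1, H2-K1 or the non-classical H2-T23) that is paired with beta-2 microglobulin, the product of B2m. Interferons raise most of these genes, replace catalytic subunits of the proteasome by Psmb8 and Psmb9, and induce Nlrc5, a transactivator of class I promoters. In the brain, class I molecules are found on microglia and also on neurons, where they have been studied for a part in synapse remodelling.

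B2m was the member with a clear rise after both lesions, so its promoter is shown beside those of its classical heavy-chain partners. Of these, H2-D1 passed as higher after SCL in the main fit, and H2-K1 passed in neither main fit against control. The windows are the 200 bases before the first RefSeq start site of each gene in GRCm38.p6, read 5′ to 3′ on the strand of the gene. Capitals mark letters of an IRF element (AANNGAAA), a kappaB site (GGGATTCCC), a CRE core (TGACG) or a CCAAT box (CCAAT), each searched on both strands.
B2m, chr2:122147487-122147686, plus strand: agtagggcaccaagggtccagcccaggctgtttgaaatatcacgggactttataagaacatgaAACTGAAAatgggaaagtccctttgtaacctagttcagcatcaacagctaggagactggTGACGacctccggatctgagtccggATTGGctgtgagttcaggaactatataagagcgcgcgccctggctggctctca
H2-D1, chr17:35262894-35263093, plus strand: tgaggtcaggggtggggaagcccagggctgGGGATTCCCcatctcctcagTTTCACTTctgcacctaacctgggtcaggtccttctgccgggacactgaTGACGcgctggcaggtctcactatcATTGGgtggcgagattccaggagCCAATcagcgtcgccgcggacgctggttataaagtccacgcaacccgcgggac
H2-K1, chr17:34000348-34000547, minus strand: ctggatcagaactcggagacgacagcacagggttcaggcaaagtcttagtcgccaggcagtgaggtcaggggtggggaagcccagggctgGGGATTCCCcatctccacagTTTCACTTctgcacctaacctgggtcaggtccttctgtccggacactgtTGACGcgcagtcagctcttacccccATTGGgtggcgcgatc

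In the B2m window the IRF element began at position -137, the CRE core at -78 and the reversed CCAAT box at -53, counted from the start site. The H2-D1 and H2-K1 windows held an IRF element, a CRE core and a reversed CCAAT box in the same order, but with the IRF element reversed. H2-D1 also held a forward CCAAT box at -53. In front of these lay a kappaB site, at position -170 of H2-D1 and -110 of H2-K1. H2-D1 and H2-K1 shared an unbroken run of 46 bases around this site. The exact letters GGGATTCCC did not occur in the B2m window. No other form of a kappaB site was searched, so the absence of these letters does not show that B2m lacks such a site. Of all 32851 RefSeq promoters, 21.3% held the IRF element within 250 bases before the start, 0.301% the kappaB site, 17.8% the CRE core and 33.8% the CCAAT box. Of the 8 members with an entry, 4 held the IRF element (B2m, H2-D1, H2-K1 and H2-T23), 2 the kappaB site, 5 the CRE core and 7 the CCAAT box. Tap2 and Nlrc5 were not among the entries, and Psmb8 matched none of these letters. The windows of Tap1 and Psmb9 lie over each other, since both genes start from 1 stretch of DNA in opposite directions. A match of letters is a description of the sequence and does not show that a factor bound there.

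**Figure D1:**
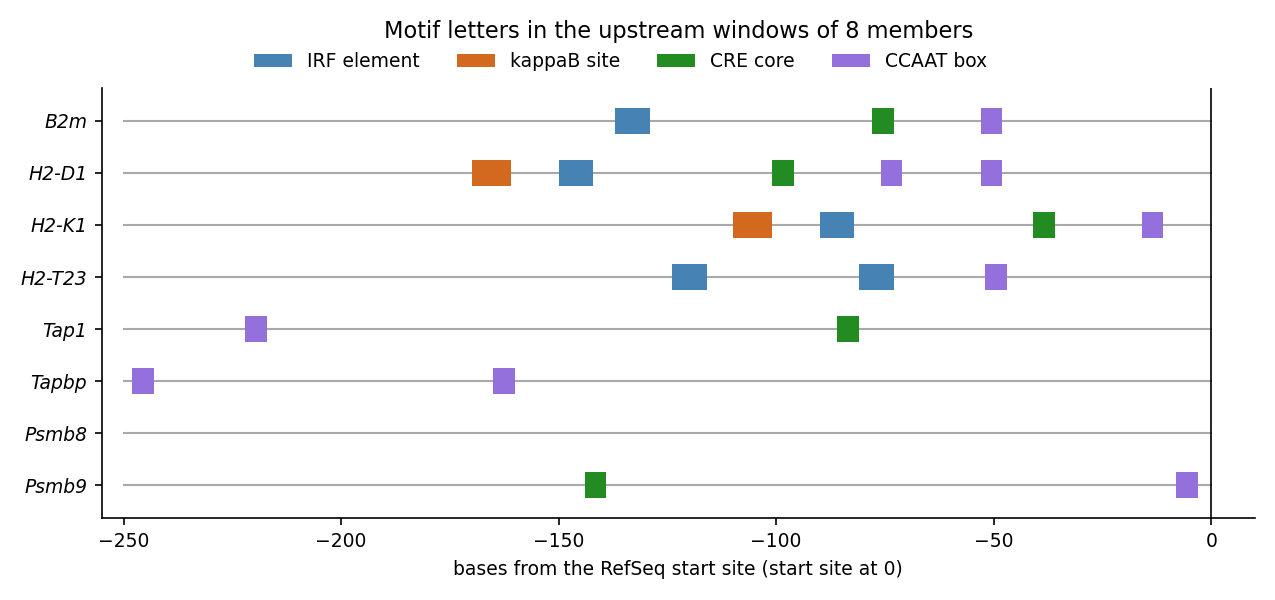
Positions of 4 sets of motif letters in the 250 bases before the first RefSeq start site (x axis, bases, start site at 0) of 8 members (rows); a block marks a match on either strand. The exact kappaB letters searched (GGGATTCCC) appear in H2-D1 and H2-K1, other forms of the site were not searched, and Psmb8 has no block.

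The members lie on 3 chromosomes of GRCm38 (GENCODE M21 annotation). B2m spans 122147686 to 122153083 on chromosome 2 and Nlrc5 spans 94434356 to 94527272 on chromosome 8. The other 8 lie in the MHC on chromosome 17, from Tapbp (33915899 to 33929292) and H2-K1 (33996017 to 34000347) through the neighbours Psmb9 (34181987 to 34187764), Tap1 (34187553 to 34197225), Psmb8 (34197721 to 34201454) and Tap2 (34203527 to 34216321) to H2-D1 (35262730 to 35267499) and H2-T23 (36029773 to 36032855). Reads were counted without regard to strand, so reads from overlapping genes cannot be told apart: 29.0% of the exon bases of Tapbp, 18.5% of Tap2, 14.7% of Psmb8, 5.79% of Psmb9 and 3.87% of Tap1 are shared with another gene. Of the 100-base stretches of the transcripts, 100.0% occur in no other gene for B2m, 99.0% for H2-K1, 96.4% for H2-D1 and 96.8% for H2-T23.

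Libraries held 14371152 to 21092612 counts in the control group, 16405517 to 56786613 after SCL and 20210165 to 46449937 after ECL. CPM values are on 1 TMM scale over all 13 libraries. The groups were tested in separate fits with edgeR's quasi-likelihood test (two-sided, Benjamini-Hochberg over all genes tested, threshold 0.05), and a gene entered a fit with a mean of at least 150 normalized counts. Of the 10 members, 6 reached this minimum in the fits of a lesion against control (B2m, H2-D1, H2-K1, Tap1, Tapbp and Psmb8). H2-T23, Tap2, Psmb9 and Nlrc5 did not, and they are described by their values and by exact permutation tests. Both lesions share the same 5 control libraries, so their results are given side by side and not as 2 independent findings.

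Of the 6 members tested, B2m and H2-D1 passed after SCL, both as higher, where 24.6% of all 11733 genes tested passed in either direction. After ECL, B2m was higher and no other tested member passed, where 27.6% of 11392 genes passed. No member fell at the threshold in these fits. Over the 6 members the log2 fold changes had their median at 0.38 in SCL and at 0.11 in ECL cultures, against 0.01 and -0.01 over all genes tested. Between ECL and SCL, 7 members were tested (H2-T23 entered as well) and none passed. There edgeR called 0 of 12478 genes, 918 had an unadjusted p under 0.05, and DESeq2 called 64.

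B2m, the light chain that every classical class I molecule needs to reach the cell surface, had 358, 270.0, 238, 423 and 290.5 CPM in control replicates 1 to 5. It had 761, 756, 1697 and 591 CPM in SCL replicates 1 to 4 and 832, 1725, 523 and 1172 CPM in ECL replicates 1 to 4. Every lesioned culture lay above the highest control. SCL replicate 3 stood far above the other SCL cultures, while the ECL cultures were spread over their range. Means were 316 ± 74.3 CPM for the 5 controls (± SD), 951 ± 504 for the 4 SCL cultures and 1063 ± 515 for the 4 ECL cultures. SCL gave a log2 fold change of 1.59 (standard error 0.28, 95% interval 1.00 to 2.19, adjusted p = 0.00290 by edgeR), a 3.02-fold rise. After ECL it was 1.76 (standard error 0.28, 95% interval 1.16 to 2.36, adjusted p = 0.000714 by edgeR), a 3.39-fold rise. Without SCL replicate 3, the culture at 1697 CPM, the log2 fold change after SCL was 1.16 (adjusted p = 0.00607 by edgeR), and without ECL replicate 2, at 1725 CPM, that after ECL was 1.43 (adjusted p = 0.00277 by edgeR). ECL and SCL were not separated, with a log2 difference of 0.17 and a 95% interval of -0.68 to 1.02, which holds differences of either sign (adjusted p = 0.960 by edgeR).

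Microglia, the resident immune cells of brain tissue, express class I genes, and their summed markers, like B2m, were higher after both lesions. The summed level of 12 microglia markers was 999 to 1169 CPM in controls, 1794 to 3334 CPM after SCL and 1813 to 2578 CPM after ECL, with no overlap between lesioned and control cultures. All 12 markers were higher after SCL at the threshold (median log2 fold change 1.03) and 8 of 12 after ECL (median 0.85). Over all genes tested, 24.6% and 27.6% passed in either direction. The cultures with the most B2m in each group, control replicate 4, SCL replicate 3 and ECL replicate 2, also had the highest marker sums, at 1169, 3334 and 2578 CPM. Single markers did not all follow this order. Control replicate 4 had the lowest C1qa of the controls, 3.49 CPM against up to 31.6 CPM. Its Tyrobp was 20.3 CPM, where controls had 14.8 to 37.6 CPM. Tyrobp, the signalling adaptor of Trem2, had 386 CPM in SCL replicate 3 and 66.4 to 78.9 CPM in the other SCL cultures. The ratio of B2m to the marker sum was 0.238 to 0.362 in controls, 0.313 to 0.509 after SCL and 0.288 to 0.669 after ECL, and the groups overlapped. Its log2 difference from control was 0.39 after SCL (exact permutation test, two-sided p = 0.0794 and 0.159 after adjustment over 18 ratio tests) and 0.62 after ECL (exact permutation test, p = 0.0556, and 0.129 adjusted). In whole tissue, more cells of a type and more RNA per cell cannot be told apart.

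Markers of other class I-rich cells were low throughout. The summed level of 6 T cell markers was 1.58 to 9.88 CPM and that of 4 NK cell markers 0 to 0.670 CPM over the 13 libraries. Cd3e, a CD3 signalling chain of the T cell receptor complex, was at 0 in 7 libraries and had at most 8 counts in the others. Trac, the constant region of the T cell receptor alpha chain, was counted in all 13 libraries, at 1.21 to 6.28 CPM in controls, 1.18 to 4.71 after SCL and 1.58 to 8.01 after ECL. Ncr1, an NK cell receptor, was at 0 in 12 libraries. The sum of 4 B cell markers was 1.39 to 6.23 CPM, and that of 6 markers of monocytes and border macrophages was 5.63 to 9.75 CPM in controls, 2.59 to 5.03 after SCL and 2.82 to 4.33 after ECL. Endothelial cells, also rich in class I, gave a sum over 6 markers of 19.3 to 31.4 CPM in controls, 10.6 to 15.0 after SCL and 9.94 to 15.8 after ECL. For the cell types that follow, the share of all genes tested that passed was 24.6% after SCL and 27.6% after ECL, in either direction. Of the 6 markers of astrocytes, 4 were higher after SCL and 3 after ECL at the threshold. Of the 6 of the oligodendrocyte lineage 2 were higher after each lesion. Of the 6 neuron markers, 1 was lower after SCL, while 3 were lower and 1 higher after ECL. Of the 6 CA1 pyramidal cell markers, 1 was lower after SCL and none passed after ECL. No tested marker of CA3 pyramidal cells passed. The part of these cell types in the level of B2m was not tested. Of the class I receptors listed, such as Cd8a on T cells and Pirb on myeloid cells, 12 of 13 symbols were in the files and none reached the minimum for testing.

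**Figure D2:**
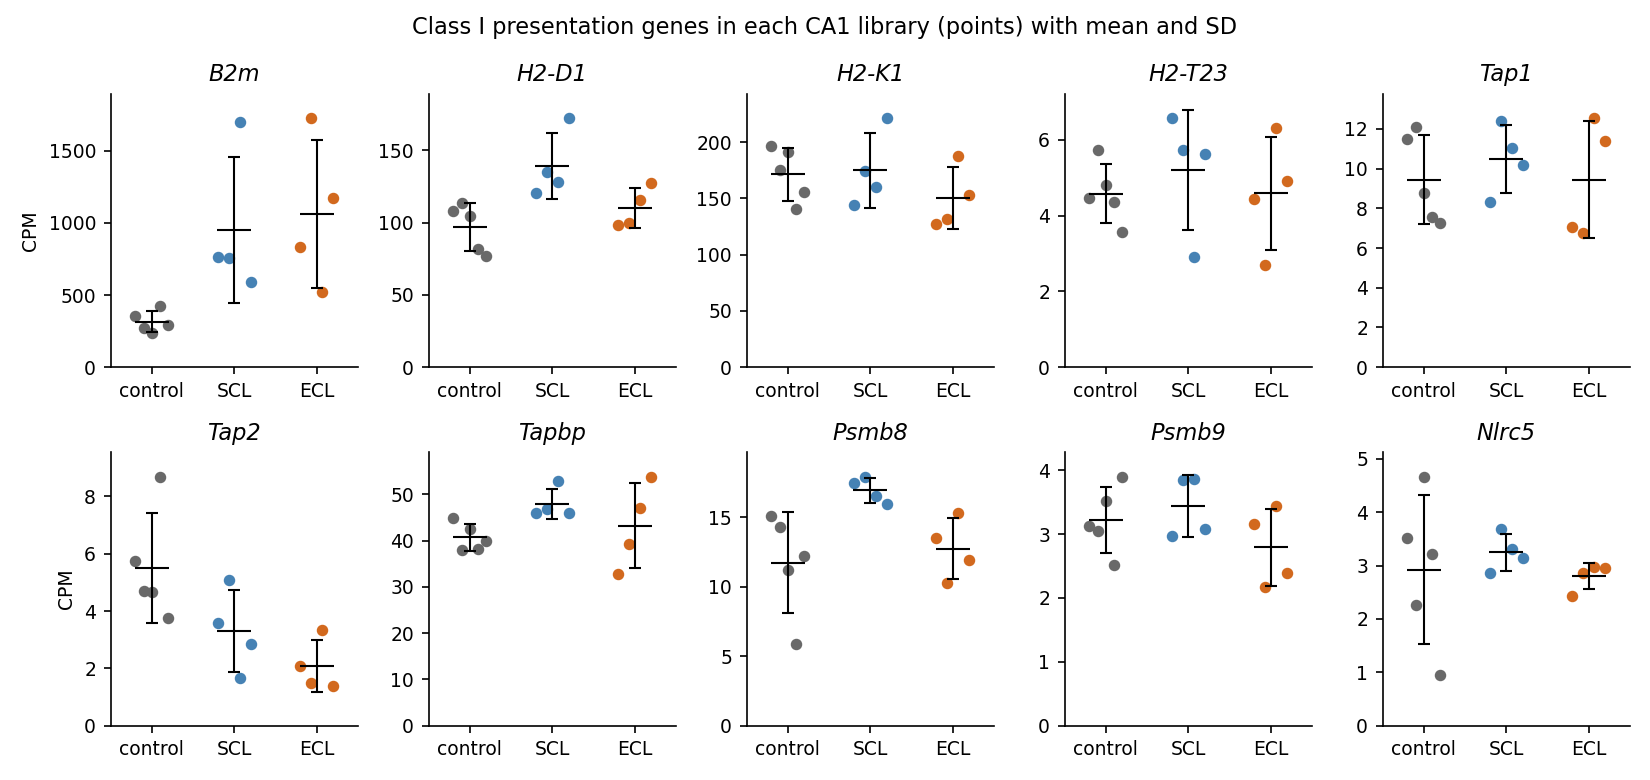
CPM (y axis, linear and starting at 0) of the 10 members in each library, 1 point per culture, for control (5), SCL (4) and ECL (4); horizontal marks give the mean and bars the SD. All 8 lesioned cultures lie above the controls for B2m (523 to 1725 against 238 to 423 CPM), while H2-K1 overlaps between all groups and Tap2 is below all controls after ECL.

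H2-D1, 1 of the 2 classical heavy chains, had 108, 114, 104, 81.7 and 76.8 CPM in control replicates 1 to 5. It had 121, 135, 128 and 172 CPM in SCL replicates 1 to 4 and 98.1, 100.0, 116 and 127 CPM in ECL replicates 1 to 4. SCL cultures lay above all controls, and ECL cultures overlapped with them. The log2 fold change after SCL was 0.52 (standard error 0.16, 95% interval 0.18 to 0.86, adjusted p = 0.0314 by edgeR), a 1.43-fold rise. This call was lost in 8 of 20 alternatives: the adjusted p by edgeR was 0.0556 without control replicate 4 and 0.0713 without control replicate 5, and without SCL replicates 2, 3 and 4 in turn it was 0.0595, 0.0502 and 0.0920, with log2 fold changes of 0.40 to 0.56. It also ended with the replicate block (0.44, adjusted p = 0.102 by edgeR), with a block by heading number (0.52, adjusted p = 0.0501 by edgeR) and with an offset for the GC content and length of each gene (0.26, adjusted p = 0.165 by edgeR). After ECL the log2 fold change was 0.19 (standard error 0.16, 95% interval -0.14 to 0.53, adjusted p = 0.381 by edgeR). The difference between ECL and SCL was -0.32 (95% interval -0.66 to 0.01, adjusted p = 0.689 by edgeR), so that a lesion-specific rise of H2-D1 was not shown.

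H2-K1, the other classical heavy chain, had 196, 175, 191, 140.3 and 156 CPM in control replicates 1 to 5. It had 144, 174, 160.2 and 221 CPM in SCL replicates 1 to 4 and 127, 132, 188 and 153 CPM in ECL replicates 1 to 4, and all groups overlapped. The log2 fold change was 0.03 after SCL (95% interval -0.31 to 0.36, adjusted p = 0.918 by edgeR) and -0.19 after ECL (95% interval -0.52 to 0.14, adjusted p = 0.392 by edgeR). Both intervals lie below the rise of B2m after the same lesion, whose lower bounds were 1.00 and 1.16.

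The balance between the heavy chains was set within each library, where the scaling between libraries has no part. The ratio of H2-K1 to H2-D1 was 1.81, 1.54, 1.83, 1.72 and 2.03 in control replicates 1 to 5. It was 1.19, 1.29, 1.25 and 1.28 in SCL replicates 1 to 4 and 1.30, 1.32, 1.62 and 1.20 in ECL replicates 1 to 4. All SCL values and 3 of 4 ECL values lay below every control. The log2 difference from control was -0.50 after SCL (two-sided exact permutation test, p = 0.00794, the smallest that 5 against 4 libraries allow) and -0.40 after ECL (exact permutation test, p = 0.0238). With adjustment over 18 ratio tests both exact tests came to p = 0.0714 and did not pass.

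The ratio of B2m to the sum of H2-D1 and H2-K1 was 0.805 to 1.91 in controls, 1.50 to 5.89 after SCL and 1.72 to 7.44 after ECL. Its geometric mean was 1.16, 2.81 and 3.75 in these groups, so light-chain counts stood higher against heavy-chain counts in most lesioned cultures, with some overlap. The log2 difference from control was 1.27 after SCL (two-sided exact permutation test, p = 0.0238) and 1.69 after ECL (exact permutation test, p = 0.0159), and both were 0.0714 after adjustment over 18 ratio tests. B2m has 860 exon bases and 41.2% GC, against 2579 and 55.9% for H2-D1 and 2938 and 54.3% for H2-K1. The ratio was not corrected for differences between libraries that depend on length or GC content.

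H2-T23, the non-classical heavy chain Qa-1 that presents leader peptides to NK cell receptors, stayed under the minimum in the fits against control, with 53 to 333 counts per library, and reached it between ECL and SCL (log2 difference -0.17, adjusted p = 0.937 by edgeR). It had 4.46, 5.74, 4.80, 4.37 and 3.56 CPM in control replicates 1 to 5, 6.57, 5.72, 2.91 and 5.62 CPM in SCL replicates 1 to 4, and 4.44, 2.69, 6.31 and 4.91 CPM in ECL replicates 1 to 4. The groups overlapped, and the SCL culture with the most B2m had the least H2-T23 of its group. The difference in log2 (CPM + 0.1) was 0.13 after SCL (two-sided exact permutation test, p = 0.619) and -0.04 after ECL (exact permutation test, p = 0.929).

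Tap1 and Tap2 form the peptide transporter. Tap1 had 11.5, 12.1, 8.78, 7.59 and 7.25 CPM in control replicates 1 to 5, 8.31, 12.4, 11.1 and 10.2 CPM in SCL replicates 1 to 4, and 7.08, 6.76, 12.5 and 11.4 CPM in ECL replicates 1 to 4, with full overlap. Its log2 fold change was 0.15 after SCL (95% interval -0.36 to 0.66, adjusted p = 0.677 by edgeR) and 0.00 after ECL (95% interval -0.57 to 0.58, adjusted p = 0.995 by edgeR).

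Tap2 had 5.74, 4.68, 4.66, 8.68 and 3.76 CPM in control replicates 1 to 5, 3.60, 5.08, 1.68 and 2.84 CPM in SCL replicates 1 to 4, and 2.10, 1.47, 3.35 and 1.39 CPM in ECL replicates 1 to 4. All ECL cultures lay below all controls, and SCL cultures lay between with overlap. The difference in log2 (CPM + 0.1) was -1.39 after ECL (two-sided exact permutation test, unadjusted p = 0.00794, the smallest possible, among 12 such tests) and -0.77 after SCL (exact permutation test, p = 0.0714). When the minimum was lowered to a mean of 10 counts, edgeR gave Tap2 a log2 fold change of -1.31 after ECL (standard error 0.36, adjusted p = 0.0177 by edgeR, where 22.7% of 21283 genes passed) and -0.63 after SCL (adjusted p = 0.231 by edgeR, where 16.3% of 22150 genes passed). The difference between ECL and SCL was -0.62 (two-sided exact permutation test, p = 0.2, and the smallest that 4 against 4 libraries can give is 0.0286). These values rest on 32 to 296 counts per library.

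Tapbp encodes tapasin, which bridges the transporter and the empty heavy chain. It had 44.8, 38.1, 42.6, 38.2 and 39.9 CPM in control replicates 1 to 5, 45.9, 46.9, 52.8 and 46.0 CPM in SCL replicates 1 to 4, and 32.7, 39.3, 47.1 and 53.8 CPM in ECL replicates 1 to 4. SCL cultures lay above all controls by a small margin, and ECL cultures spread over both sides of the control range. SCL gave a log2 fold change of 0.24 (standard error 0.13, adjusted p = 0.195 by edgeR) and 0.09 after ECL (standard error 0.16, adjusted p = 0.709 by edgeR).

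Psmb8 and Psmb9 are catalytic subunits that replace Psmb5 and Psmb6 in the immunoproteasome. Psmb8 had 15.1, 14.3, 11.2, 5.84 and 12.2 CPM in control replicates 1 to 5, 17.4, 17.9, 16.5 and 15.9 CPM in SCL replicates 1 to 4, and 13.5, 10.2, 15.3 and 12.0 CPM in ECL replicates 1 to 4. SCL cultures lay close together and above both other groups. SCL gave a log2 fold change of 0.53 (standard error 0.25, 95% interval -0.01 to 1.07, adjusted p = 0.137 by edgeR) and 0.13 after ECL (adjusted p = 0.763 by edgeR), and ECL differed from SCL by -0.40 (standard error 0.16, unadjusted p = 0.0306, adjusted p = 0.640 by edgeR). Without overlap between groups, 4 of the 6 members were higher after SCL (B2m, H2-D1, Tapbp and Psmb8), where 23.3% of all genes tested showed no overlap in either direction, and 1 of 6 after ECL (B2m), where 24.9% did. Between ECL and SCL this held for Psmb8 alone, 1 of 7 members, which was lower after ECL, and for 3.85% of all genes tested in either direction.

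Psmb9 had 3.12, 3.05, 3.51, 2.51 and 3.89 CPM in control replicates 1 to 5, 2.97, 3.85, 3.87 and 3.08 CPM in SCL replicates 1 to 4, and 3.16, 2.17, 3.44 and 2.39 CPM in ECL replicates 1 to 4. The groups overlapped, with 46 to 224 counts per library. The difference in log2 (CPM + 0.1) was 0.10 after SCL (two-sided exact permutation test, p = 0.516) and -0.21 after ECL (exact permutation test, p = 0.246).

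Each immunoproteasome subunit was set against the constitutive subunit whose place it takes. The ratio of Psmb8 to Psmb5 was 0.246, 0.190, 0.143, 0.0771 and 0.182 in control replicates 1 to 5, 0.362, 0.284, 0.375 and 0.270 in SCL replicates 1 to 4, and 0.239, 0.263, 0.282 and 0.257 in ECL replicates 1 to 4. All SCL cultures and 3 of 4 ECL cultures exceeded every control. The log2 difference was 1.03 after SCL (two-sided exact permutation test, p = 0.0159) and 0.73 after ECL (exact permutation test, p = 0.0238), and both were 0.0714 after adjustment over 18 ratio tests. Psmb5 had 61.4 to 78.2 CPM in controls, 44.0 to 62.9 after SCL (-0.42 as log2 fold change, adjusted p = 0.0508 by edgeR) and 38.9 to 56.5 after ECL (log2 fold change -0.54, adjusted p = 0.0180 by edgeR, lost in 4 of 20 alternatives). Of its 100-base stretches, 77.8% occur in no other gene.

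The other pairs leaned the opposite way without passing. The ratio of Psmb9 to Psmb6 differed from control by -0.51 on the log2 scale after SCL (two-sided exact permutation test, p = 0.159) and by -0.55 after ECL (exact permutation test, p = 0.135). The ratio of Psmb10, the remaining inducible subunit, to Psmb7 differed by -0.62 after SCL (exact permutation test, p = 0.135) and by -0.67 after ECL (exact permutation test, p = 0.119). The constitutive partners rose: Psmb7 had 53.0 to 67.1 CPM in controls, 64.2 to 129 after SCL (0.68 as log2 fold change, adjusted p = 0.0169 by edgeR, lost in 1 of 20 alternatives) and 88.7 to 129 after ECL (log2 fold change 0.88, adjusted p = 0.000819 by edgeR). Psmb6 rose by 0.68 on the log2 scale after SCL (adjusted p = 0.0479 by edgeR), a call lost in 13 of 20 alternatives, and its log2 fold change after ECL was 0.42 (adjusted p = 0.208 by edgeR).

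**Figure D3:**
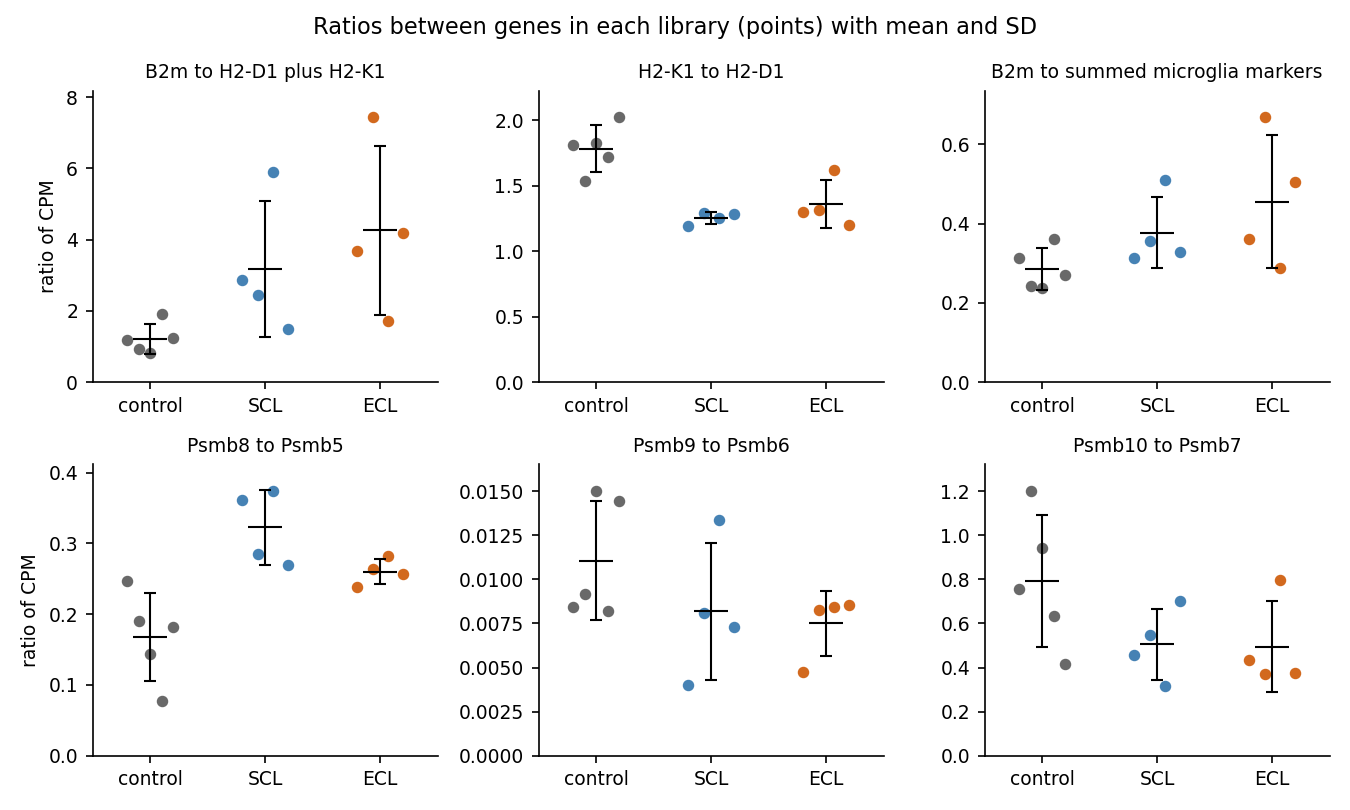
Ratios of CPM between genes (y axis, linear and starting at 0) in each library, 1 point per culture; marks give the mean and bars the SD for control (5), SCL (4) and ECL (4). H2-K1 to H2-D1 is 1.54 to 2.03 in controls and 1.19 to 1.29 after SCL, and the ratios of Psmb9 to Psmb6 and of Psmb10 to Psmb7 overlap between all groups.

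Nlrc5, the transactivator of class I promoters, had 3.51, 2.26, 4.66, 3.22 and 0.940 CPM in control replicates 1 to 5, 2.86, 3.69, 3.31 and 3.14 CPM in SCL replicates 1 to 4, and 2.44, 2.86, 2.97 and 2.96 CPM in ECL replicates 1 to 4. The controls spread over a wider range than both lesion groups, and all groups overlapped. The difference in log2 (CPM + 0.1) was 0.31 after SCL (two-sided exact permutation test, p = 0.643) and 0.11 after ECL (exact permutation test, p = 0.889). The counts were 14 to 215 per library.

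**Figure D4:**
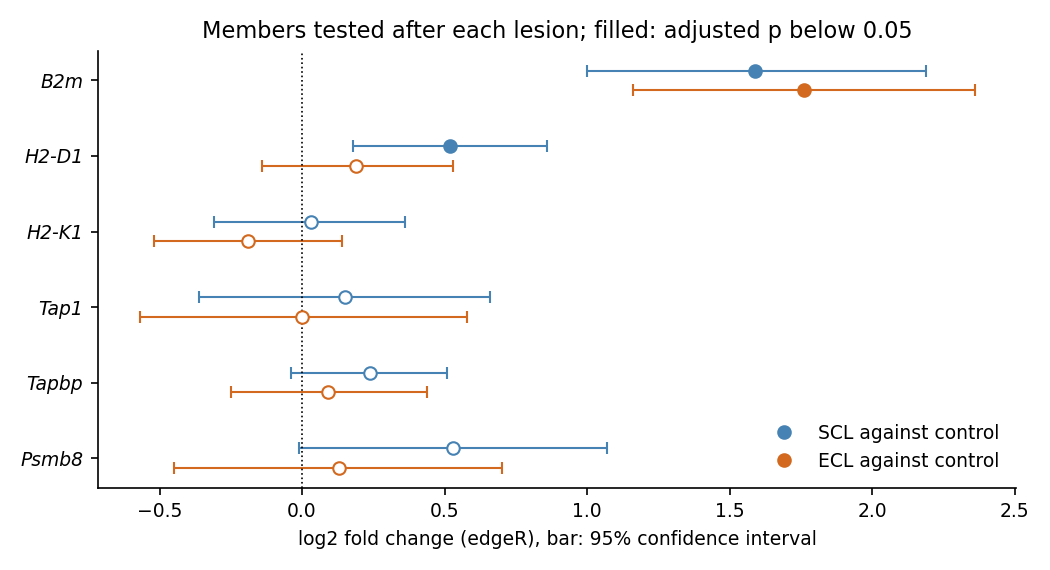
Log2 fold changes from edgeR (x axis) of the 6 members tested, SCL and ECL each against the same 5 controls; bars give the 95% interval and filled points have an adjusted p under 0.05. B2m lies at 1.59 and 1.76 with intervals above 1, H2-D1 passes after SCL at 0.52, and every other interval includes 0.

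Levels between genes were set side by side per kilobase of merged exons. In controls the order was B2m with 367 CPM per kilobase, H2-K1 with 58.4, H2-D1 with 37.6, Tapbp with 11.2, Psmb8 with 3.47, Tap1 with 1.72, H2-T23 with 1.59, Tap2 with 1.46, Psmb9 with 0.879 and Nlrc5 with 0.344 (means, n = 5). The ranges over the 5 controls did not meet from B2m down to Psmb8, except that the lowest Psmb8 culture reached 1.73 CPM per kilobase, inside the range of Tap1 (1.32 to 2.21). Tap1, H2-T23 and Tap2 overlapped with each other, and Psmb9 (0.686 to 1.06) met Tap2 (0.995 to 2.30). After SCL B2m reached 1106 and H2-D1 53.9 CPM per kilobase, near the 59.5 of H2-K1. After ECL the values were 1236 for B2m, 51.0 for H2-K1 and 42.8 for H2-D1.

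The genes whose levels followed B2m most closely were found by the root mean square difference of mean-centred log2 CPM over the 13 libraries, among 11760 genes. They were Ap3s1-ps1 (0.273), Rbm3-ps (0.283), Fcer1g (0.344), Pxmp2 (0.350) and Sumo2 (0.360). Fcer1g, the signalling chain of Fc receptors on microglia, had 72.8 to 124 CPM in controls, 165 to 460 after SCL and 165 to 383 after ECL. Ap3s1-ps1 and Rbm3-ps are pseudogenes, whose counts may hold reads of their parent genes. Of the 5 other members ranked, none was among the closest: H2-D1 ranked 3605th, Tapbp 3741st, Psmb8 5411th, Tap1 6589th and H2-K1 7995th. Levels were centred over all groups together, so a close gene must also change like B2m after the lesions. The ranks and the ranges of Fcer1g therefore restate the fold changes and are no separate evidence.

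Other genes of the pathway were taken from lists. For each list, the share of all genes tested that passed was 24.6% after SCL and 27.6% after ECL, in either direction. Of 9 tested genes of class I loading and trafficking, 2 rose and 1 fell after SCL and 2 rose after ECL, with median log2 fold changes of 0.23 and 0.28. Psme2, a subunit of the PA28 proteasome activator, rose by 0.70 after SCL (adjusted p = 0.00498 by edgeR) and by 0.51 after ECL (adjusted p = 0.0177 by edgeR) on the log2 scale, from 41.3 to 62.2 CPM in controls to 81.4 to 89.1 and 71.6 to 76.8 CPM. Of its 100-base stretches, 81.6% occur in no other gene, and the rest are shared with Psme2b. With the offset for GC content and length both Psme2 calls were lost, at 0.33 and 0.11 on the log2 scale. Pdia3, the disulfide isomerase of the loading complex, rose by 0.73 and 0.68 (adjusted p = 0.0277 and 0.00896 by edgeR), with the call after SCL lost in 4 of 20 alternatives. Calr, the chaperone of empty heavy chains, fell by 0.50 after SCL (adjusted p = 0.0147 by edgeR, lost in 4 of 20 alternatives) and had a log2 fold change of -0.16 after ECL (adjusted p = 0.425 by edgeR).

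Among other class I and class I-like heavy chains, 5 of 17 reached the minimum, and 3 of these rose after each lesion, with medians of 0.73 and 0.62. Hfe, the heavy chain that regulates iron uptake and pairs with B2m, had 7.75 to 16.1 CPM in controls, 19.6 to 23.6 after SCL and 17.2 to 22.1 after ECL. Its log2 fold change was 1.01 after SCL (adjusted p = 0.00879 by edgeR) and 0.85 after ECL (adjusted p = 0.0176 by edgeR, lost in 1 of 20 alternatives). Fcgrt, the neonatal Fc receptor and another partner of B2m, rose by 0.68 and 0.62 on the log2 scale (adjusted p = 0.0281 and 0.0387 by edgeR), calls that were lost in 7 and 10 of 20 alternatives. H2-T22, a ligand of gamma-delta T cells, rose by 0.97 after SCL (adjusted p = 0.0217 by edgeR, lost in 2 of 20 alternatives) and had a log2 fold change of 0.60 after ECL (adjusted p = 0.0975 by edgeR). Only 68.5% of its 100-base stretches occur in no other gene, so its counts are uncertain.

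Of 10 tested transcription factors with a place at class I promoters, none rose, 2 fell after SCL and 1 fell after ECL, with medians of -0.22 and -0.32. These counts were no higher than the shares over all genes tested, 24.6% after SCL and 27.6% after ECL in either direction. Irf2, a regulator at IRF elements, had 44.9 to 53.7 CPM in controls, 18.0 to 30.4 after SCL and 21.3 to 41.0 after ECL, and the lesioned cultures lay below all controls. Its log2 fold change was -0.95 after SCL (adjusted p = 0.00306 by edgeR) and -0.51 after ECL (adjusted p = 0.0538 by edgeR). Rfxap, a subunit of the RFX complex, fell by 0.56 after SCL (adjusted p = 0.0165 by edgeR, lost in 2 of 20 alternatives) and had a log2 fold change of -0.42 after ECL (adjusted p = 0.0584 by edgeR). Atf1, a factor at CRE sites, changed by -0.54 on the log2 scale after ECL (adjusted p = 0.0439 by edgeR) and stood at -0.33 after SCL (adjusted p = 0.163 by edgeR), and the call was lost in 14 of 20 alternatives.

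For class II presentation, 3 of 9 genes were tested. H2-DMa, which helps to load class II molecules, rose by 1.14 after SCL (adjusted p = 0.0482 by edgeR) and by 1.46 after ECL (adjusted p = 0.00613 by edgeR) on the log2 scale, and the call after SCL was lost in 10 of 20 alternatives. Cd74, the invariant chain, rose by 1.82 after ECL (adjusted p = 0.0100 by edgeR) from 0.764 to 7.69 CPM in controls to 9.39 to 16.6 CPM, and its log2 fold change in the SCL cultures was 1.69 (adjusted p = 0.0572 by edgeR). H2-Ab1, a class II beta chain, had log2 fold changes of 0.08 and 0.65 (adjusted p = 0.848 and 0.0453 by edgeR), and the call after ECL was lost in 10 of 20 alternatives.

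Of 12 tested interferon receptors and signalling genes, 3 rose and 1 fell after SCL and 2 rose after ECL, with medians of 0.09 and -0.03. Shares over all genes tested were 24.6% and 27.6%, in either direction. Ifnar2, a chain of the type I interferon receptor, had 7.37 to 12.4 CPM in controls, 16.4 to 25.0 after SCL and 19.2 to 26.7 after ECL. Its log2 fold change was 0.96 (adjusted p = 0.00820 by edgeR) and 1.14 (adjusted p = 0.00163 by edgeR). Of the chains of the interferon gamma receptor, Ifngr1 rose by 0.57 and 0.53 (adjusted p = 0.0371 and 0.0407 by edgeR), calls that were lost in 11 and 10 of 20 alternatives. Ifngr2 fell by 0.46 after SCL (adjusted p = 0.0280 by edgeR), lost in 10 of 20 alternatives, and had a log2 fold change of -0.24 after ECL (adjusted p = 0.239 by edgeR). The interferon genes Ifnb1, Ifna4 and Ifng, looked up after the values were seen, were barely counted. Ifnb1 had at most 6 counts in any library, Ifna4 at most 6 and Ifng at most 8. Other interferon genes were not looked up.

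Of 13 tested interferon targets, 6 rose after each lesion and none fell at the threshold, with medians of 0.86 after SCL and 0.77 after ECL. Log2 fold changes below 0 that did not pass were those of Cxcl10 (-0.78), Ifit2 (-0.20) and Rsad2 (-0.11) after SCL. After ECL this held for Ifit2 (-0.33). Shares over all genes tested were 24.6% and 27.6%, in either direction. Ifitm3, a membrane protein that restricts virus entry, had 134 to 192 CPM in controls, 266 to 473 after SCL and 277 to 505 after ECL. Its log2 fold change was 0.98 (adjusted p = 0.00363 by edgeR) and 1.25 (adjusted p = 0.000530 by edgeR). Ifi27 rose by 0.81 and 0.85 (adjusted p = 0.00149 and 0.00163 by edgeR), and Xaf1 by 0.86 and 0.77 (adjusted p = 0.0154 and 0.0177 by edgeR), on the log2 scale. The calls after ECL were lost in 1 of 20 alternatives for Ifi27 and in 2 of 20 for Xaf1. Ifitm3 passed in 20 of 20 after each lesion, with lowest log2 fold changes of 0.49 after SCL and 0.72 after ECL. Irf1, a regulator of class I genes that was picked after its values were seen, did not pass after either lesion, with log2 fold changes of -0.06 after SCL and -0.12 after ECL. Of other IRF genes looked up likewise, Irf3 and Irf8 passed after neither lesion, and Irf7 did not reach the minimum against control. Irf9 rose by 0.45 after SCL (adjusted p = 0.0389 by edgeR) and had a log2 fold change of 0.15 after ECL (adjusted p = 0.495 by edgeR).

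**Figure D5:**
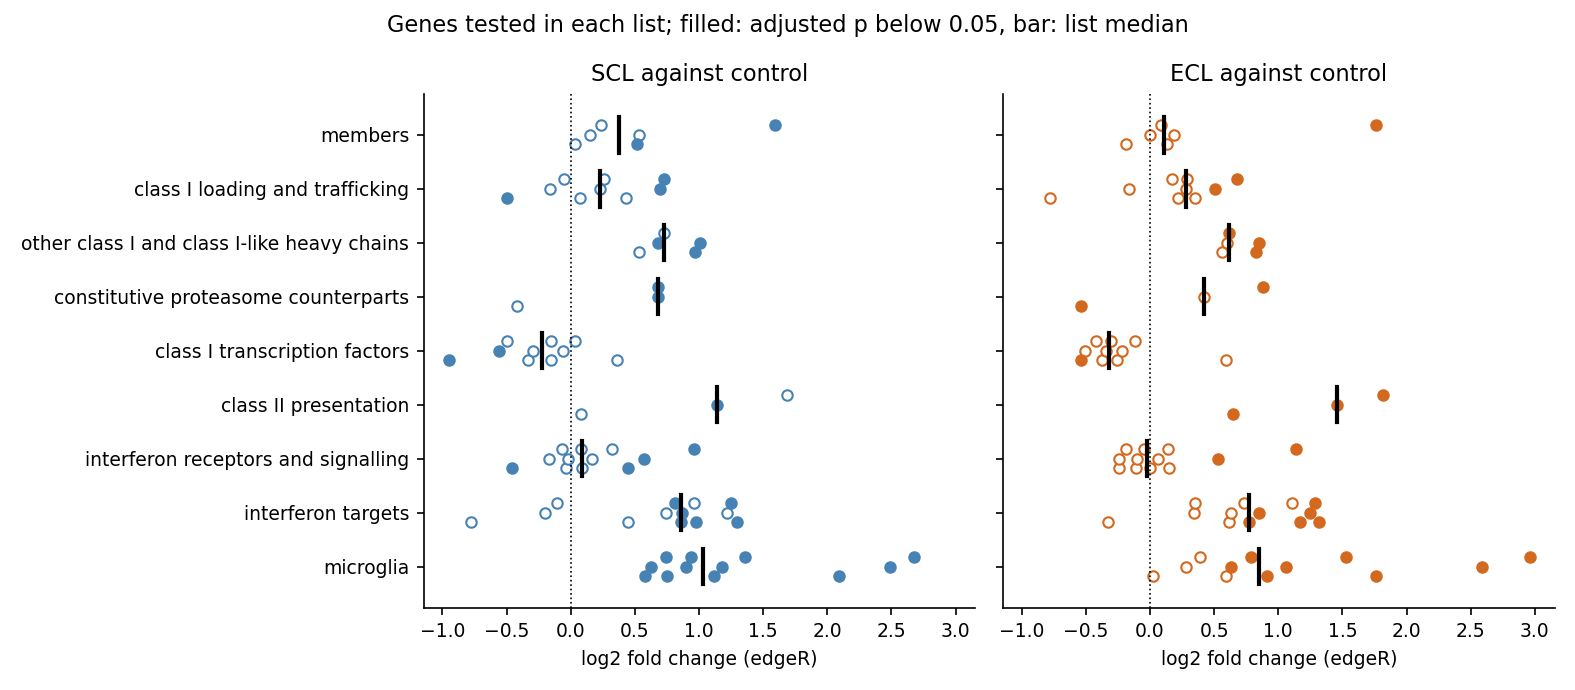
Log2 fold changes from edgeR (x axis) of the genes tested in each list (rows, 1 point per gene), SCL on the left and ECL on the right, each against the same 5 controls; filled points have an adjusted p under 0.05 and bars give list medians. Interferon targets and microglia markers have medians of 0.86 and 1.03 after SCL, and the class I members have 0.38.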

How the data were processed

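Poly(A) RNA of single CA1 isolates was amplified with a low-input kit and sequenced paired-end. According to the submitters' processing notes, the authors used cutadapt 3.5, STAR 2.7.8a on mm10 and featureCounts 2.0.1, and the paper names GENCODE M25 and unstranded counting. The deposited files hold raw counts per gene symbol, which the authors did not normalize. Of the values from 1 to 20, 63.0% to 74.3% were even in each library, so both mates of a pair were apparently counted, and halved counts served as an alternative.

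Each pair of groups was fitted with edgeR 4.0.16 in R 4.3.3 (TMM over the genes tested, genes with a mean of 150 normalized counts or more, as in the study). Alternatives were DESeq2 1.42.0, other scalings and minimums, a single fit, a sex term, a replicate block and leaving out each library. A block from the file headings and an offset for length and GC content (mgcv 1.9.3) were added after seeing the data. Ratios and members under the minimum were tested with exact permutation tests, two-sided, over all divisions of the libraries into the 2 groups. A pseudocount of 0.1 CPM was added for the members under the minimum and none for the ratios. Gene positions came from GENCODE M21 (GRCm38) and promoters from RefSeq. The fitting code was tested on simulated data. No batch or date is given, and sex in the headings was 2 male and 3 female for control, 1 and 3 for SCL, and 3 and 1 for ECL. The p-values measure the spread between cultures, whose animals are not named.

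Members and lists were chosen with earlier results of these data known. Named were all 10 members, per pathway list at most 3 genes with the smallest adjusted p after either lesion, and the 5 genes closest to B2m. Irf1, Irf3, Irf7, Irf8, Irf9, Cxcl10, Ifit2, Rsad2 and the interferon genes were named after their values were seen. Members of all lists were 174 genes, of which 173 were in the files (Gp49a was not). It was not settled whether the replicate numbers of the titles pair the libraries. Of 12 same-numbered pairs, 5 had correlated deviations over 0.1, within a range of -0.164 to 0.541. The highest was ECL replicate 1 with SCL replicate 1.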

Additional observations from a re-analysis of the deposited data

Results flagged for a closer look

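Of 48 group-wise sets of values examined, 4 held a culture far from the others of its group by Dixon's criterion at the 95% level, which chance alone reaches in about 1 in 20 groups. B2m in SCL replicate 3 was at 1697 CPM, with the other SCL cultures at 591 to 761 CPM. Tapbp was at 52.8 CPM in the same culture and at 45.9 to 46.9 CPM in the others. SCL replicate 3 also had the highest summed microglia markers, 3334 CPM. The ratio of Psmb9 to Psmb6 was 0.00477 in ECL replicate 1 and 0.00828 to 0.00852 in the other ECL cultures. The ratio of Psmb10 to Psmb7 was 0.799 in ECL replicate 3 and 0.369 to 0.434 in the others. The part that these single cultures play beyond the values given without them was not tested.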

How the results depend on the processing

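B2m passed after each lesion in 20 of 20 alternatives, with log2 fold changes of 1.16 to 1.81 after SCL (largest adjusted p = 0.0138 by edgeR, in the replicate block) and 1.30 to 1.99 after ECL (largest adjusted p = 0.00491 by edgeR, in the block by heading number). With the offset for length and GC content these were 1.20 and 1.30, and B2m has 41.2% GC against 52.5% to 57.1% in the other members. The number of members called after SCL was 2, and fell to 1 with the replicate block, the block by heading number and the offset, since H2-D1 had adjusted p = 0.102, 0.0501 and 0.165 there by edgeR. It ranged from 1 to 2 when single libraries were left out. The number called after ECL was 1, and became 2 with a mean minimum of 10 or none (Tap2 joined) and with the offset (H2-K1 at -0.41, adjusted p = 0.0216 by edgeR). It was 0 between ECL and SCL in 19 of 19 alternatives. Of 12 tests of members under the minimum, which unlike the ratio tests were not adjusted, 1 had a p under 0.05, and 1 to 2 when single libraries were left out: without SCL replicate 2, Tap2 after SCL had p = 0.0179 (exact permutation test), and without SCL replicate 1, Nlrc5 differed between ECL and SCL with p = 0.0286 (exact permutation test). No result changed sign past the threshold. With TMM factors over all symbols the median of all genes moved to 0.21 after SCL and 0.18 after ECL, higher calls made up 80.9% and 78.0% of calls in place of 52.9% and 54.9%, and Tapbp passed after SCL (0.44, adjusted p = 0.0338 by edgeR). Without a mean minimum Psmb8 passed after SCL (0.72, adjusted p = 0.0395 by edgeR). Calls over all genes were 2891 after SCL, 5390 with no minimum, 1824 with the block by heading number, 1904 without SCL replicate 2 and 1672 without SCL replicate 3. After ECL they were 3139, 4825 with a minimum of 10 and 8034 with none. Between ECL and SCL they were 0, 217 with no minimum, 64 with DESeq2 and 54 without SCL replicate 3. The cause of these shifts was not tested. The members under the minimum had 14 to 333 counts per library.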
